A study of Mus musculus with 12 samples.

Results

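The adrenergic receptors are the membrane receptors for norepinephrine and epinephrine. The 8 receptor genes Adra1a, Adra1b, Adra1d, Adra2a, Adra2b, Adra2c, Adrb1 and Adrb3 were taken by symbol from the 20989 loci of the expression files. Messenger RNA was sequenced from the auditory cortex of acute brain slices of 4-week-old C57bl6/J mice. After 15 min of recovery the hemispheres of each of 6 mice were cut apart and left for 45 min in aCSF (artificial cerebrospinal fluid). They were then incubated for 1 h, one in control aCSF and the other in cocktail aCSF. The study's methods add a further rest of 1 h in aCSF for both before the cortex was dissected. This gave 6 control and 6 cocktail libraries paired by mouse. The cocktail held 50 µM (-)-bicuculline methiodide, 100 µM DL-norepinephrine hydrochloride, 50 µM carbamoylcholine chloride, 100 µM dopamine hydrochloride, 40 µM ascorbic acid and 100 µM serotonin hydrochloride. Bicuculline blocks GABA-A receptors, carbamoylcholine acts on acetylcholine receptors, and norepinephrine is the ligand of the receptors described here. These agents were given together, so their parts in any difference cannot be told apart.

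Adrenergic receptors are G-protein coupled and fall into 3 classes. The alpha1 receptors (Adra1a, Adra1b, Adra1d) act mainly through Gq and phospholipase C, the alpha2 receptors (Adra2a, Adra2b, Adra2c) through Gi/o, which lowers cAMP and opens potassium channels, and the beta receptors (Adrb1, Adrb3) mainly through Gs, which raises cAMP. The cortex receives norepinephrine from fibers of the locus coeruleus, whose cell bodies lie in the brainstem. Cortical neurons and glia carry these receptors, and alpha2 receptors also sit on the noradrenergic terminals themselves.

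Promoter windows, from 250 bases before to 50 bases after the annotated start of a gene, were read from RefSeq on GRCm38.p6. They were found for 5 of the 8 receptors: Adra1b, which had 2 windows, Adra2a, Adra2b, Adra2c and Adrb1. The 2 printed below, both on the + strand of chromosome 19, are shown because Adrb1 is the receptor whose transcript differed between the groups, and because theirs are the windows among the 6 that held TGACG (capitals), the core of the cAMP response element. The Adrb1 window is chr19:56721867-56722166 and the Adra2a window is chr19:54045009-54045308.
Adrb1: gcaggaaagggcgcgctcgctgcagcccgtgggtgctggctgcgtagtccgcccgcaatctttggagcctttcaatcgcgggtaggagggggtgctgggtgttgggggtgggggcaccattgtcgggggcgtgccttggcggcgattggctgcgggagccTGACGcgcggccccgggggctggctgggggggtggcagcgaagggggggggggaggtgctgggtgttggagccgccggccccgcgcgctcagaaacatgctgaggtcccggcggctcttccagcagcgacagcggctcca
Adra2a: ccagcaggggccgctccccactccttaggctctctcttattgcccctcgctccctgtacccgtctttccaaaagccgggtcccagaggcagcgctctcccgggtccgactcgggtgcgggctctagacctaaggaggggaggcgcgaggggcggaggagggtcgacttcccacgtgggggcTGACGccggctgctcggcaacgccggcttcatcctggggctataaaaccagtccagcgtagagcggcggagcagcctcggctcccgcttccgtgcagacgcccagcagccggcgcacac
Both strands were searched. TGACG lay 90 bases before the start of Adrb1 and 69 bases before that of Adra2a, and 20.8% of all 32851 windows of this length held it. The palindromic element TGACGTCA, which contains TGACG and was present in 1.79% of all windows, was in none of the 6. The Egr motif GCGTGGGCG, present in 0.612% of all windows, was in none either. The AP-1 motif TGANTCA, present in 7.81% of all windows, was found in 1 of the 2 windows of Adra1b. The Adrb1 window was 72.3% G and C, against a median of 52.7% over all windows. The locus of Adrb1 in the expression files begins at position 56722372, which is 255 bases after the start used for the promoter window. A motif match is a description of the letters and not of a bound site.

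Levels were given as FPKM, fragments scaled to transcript length and to the mapped fragments of the library. They can be set side by side between genes only as far as the length used is right. By FPKM, Adrb1, the main beta receptor of the forebrain, was the most abundant of the 8 in control slices. Its rank above Adra1d depended on the length used, as described below. Its locus is chr19:56722372-56724862, and it has a single exon. In mice 1 to 6 its control level was 26.1, 29.4, 28.4, 37.5, 37.1 and 35.9 FPKM (mean 32.4 ± 5.01, SD, n = 6). Mice 4 to 6 thus had higher control levels than mice 1 to 3. Its mean lay at the 89.8th percentile of all loci.

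Adra1d was the second most abundant by FPKM, and its control level was the most even of the 8. Its locus is chr2:131545357-131562285 on the - strand. Control slices of mice 1 to 6 gave 23.2, 21.9, 23.7, 21.9, 23.0 and 23.9 FPKM (22.9 ± 0.852, SD, n = 6). This spread of 3.71% of the mean was no larger than the 3.99% given by counting error alone, whereas Adrb1 varied by 15.5% between control slices against 3.46% from counting. The alpha1 class was mostly Adra1d, which made up 67.8% ± 1.90 of its summed FPKM (SD, n = 6 control slices).

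Adra2c, Adra1b and Adra2a formed a middle group. In control slices, Adra2c, at chr5:35278566-35281763 and with 1 exon, ranged from 6.17 to 9.001 FPKM with a median of 7.28. Adra1b, at chr11:43774605-43901237 on the - strand, ranged from 6.43 to 7.74 with a median of 7.11. Adra2a, the receptor on which guanfacine acts, lies at chr19:54045182-54048982 and ranged from 5.30 to 7.55 with a median of 6.53. The ranges of the 3 receptors overlapped widely. Adra1a, at chr14:66635251-66771168, was lower in its mean, with 2.79 to 4.60 FPKM and a median of 3.96.

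The other 2 receptors were scarce. Adrb3, best known for lipolysis in adipose tissue, lies at chr8:27225776-27229588 on the - strand and had 0.2002 to 0.615 FPKM in control slices (median 0.523), from 15 to 24 reads per library. Adra2b, at chr2:127363286-127367221 with 1 exon, had 0 to 0.0476 FPKM from 0 to 2 reads. The level that 3 reads would give for Adra2b was 0.0338 to 0.0714 FPKM in the libraries where it had any read. Its 8 reads over the 6 control libraries correspond to 0.0884 reads per 1000000 reads (exact 95% Poisson interval 0.0382 to 0.174, counting error only). In bulk tissue, fewer cells with a transcript and less of it per cell cannot be told apart.

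**Figure D1:**
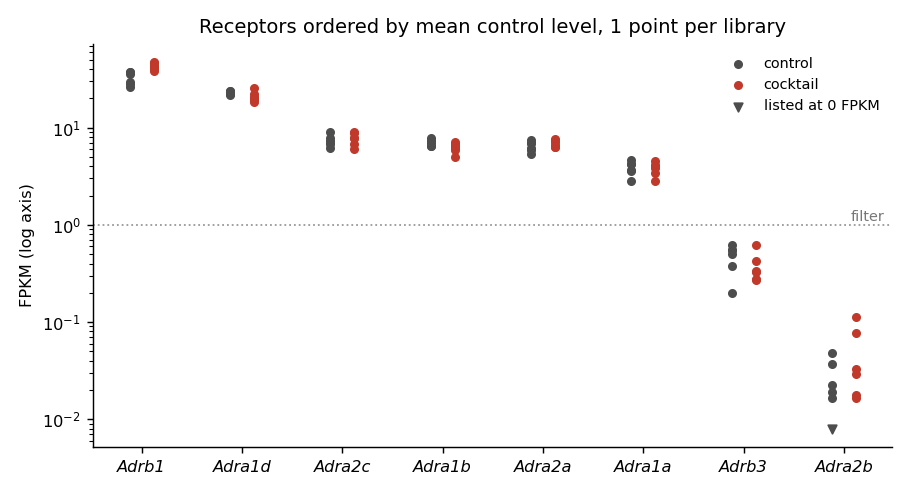
FPKM of each receptor in each library on a log axis, with receptors ordered by their mean in the 6 control slices (gray) and the 6 cocktail-treated slices beside them (red). Adrb1 and Adra1d lie at 18.2 FPKM or more in every library, 4 receptors lie between 2.79 and 9.03 FPKM, and Adrb3 and Adra2b lie below the minimum mean of 1 FPKM used for testing (dotted line). The triangle marks the library of Adra2b listed at 0.

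Neighbours in the control order were compared within mice by flipping the signs of the 6 differences in every way (an exact permutation test, two-sided), whose smallest p with 6 mice is 0.03125, and adjusted over the 7 pairs. Adrb1 lay above Adra1d in 6 of 6 mice, by 0.47 ± 0.23 on the log2(FPKM + 1) scale (SD, n = 6; exact p = 0.03125, adjusted 0.0438). Of the 7 neighbouring pairs, 5 reached these values. Adra2c and Adra1b did not differ beyond their spread (Adra2c higher in 3 of 6 mice, exact p = 0.656), nor did Adra1b and Adra2a (Adra1b higher in 4 of 6 mice, exact p = 0.156, adjusted 0.182).

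The position of Adrb1 above Adra1d depended on the length used. When the reads behind each value were divided by the length of the RefSeq transcript (2952 bases for Adrb1 and 1899 for Adra1d), the control means were 19.02 ± 2.49 reads per kilobase per 1000000 reads for Adrb1 and 21.9 ± 1.52 for Adra1d (SD, n = 6). On this scale Adrb1 was the higher in 1 of 6 control and 5 of 6 cocktail libraries (exact p = 0.0938 for the control difference). The deposited locus of Adrb1 spans only 2491 bases. With that length, an alternative chosen after seeing the data, its control mean was 22.5 ± 2.95 and it was the higher in 4 of 6 control libraries.

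The cocktail was compared with control aCSF within mice to ask which receptor transcripts followed the change of medium. Adrb1 rose, and it was the only receptor called. In cocktail-treated slices of mice 1 to 6 it stood at 40.5, 42.2, 37.9, 47.1, 46.0 and 42.6 FPKM (42.7 ± 3.40, SD, n = 6), which is 10.3 ± 2.80 FPKM above control. The 2 groups of libraries did not overlap, but the gap was small: the lowest cocktail library (37.9, mouse 3) stood just above the highest control library (37.5, mouse 4). Over all loci tested, 0.914% had groups that did not overlap, and 0.715% did so with the cocktail higher. The log2 fold change of Adrb1 in limma, on the log2(FPKM + 1) scale, was 0.40 ± 0.055 (SE; 95% interval 0.28 to 0.52; adjusted p = 0.00213), a 1.32-fold rise. It was higher in 6 of 6 mice (exact permutation p = 0.03125).

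The rise of Adrb1 within mice was uneven. It was 0.61, 0.51 and 0.41 on the log2 scale in mice 1, 2 and 3, and 0.32, 0.30 and 0.24 in mice 4, 5 and 6. The larger differences were thus in the mice whose control slices had the lower levels. Each difference is taken from that same control value, so level and difference are not independent. Their relation was not tested. Without the mouse block, the log2 fold change of Adrb1 was the same but its adjusted p was 0.05002, just over the threshold. Over the 15 alternative fits, its log2 fold change ranged from 0.36 to 0.43 and its adjusted p from 0.000379 to 0.05002. In size, Adrb1 stood in place 96 of the 12032 loci when ordered by rise. Fos, an immediate early gene given here as the check that the cocktail had acted, went from 230 to 401 FPKM in control to 568 to 754 in cocktail-treated slices (log2 fold change 0.99, limma adjusted p = 2.9e-05, higher in 6 of 6 mice).

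**Figure D2:**
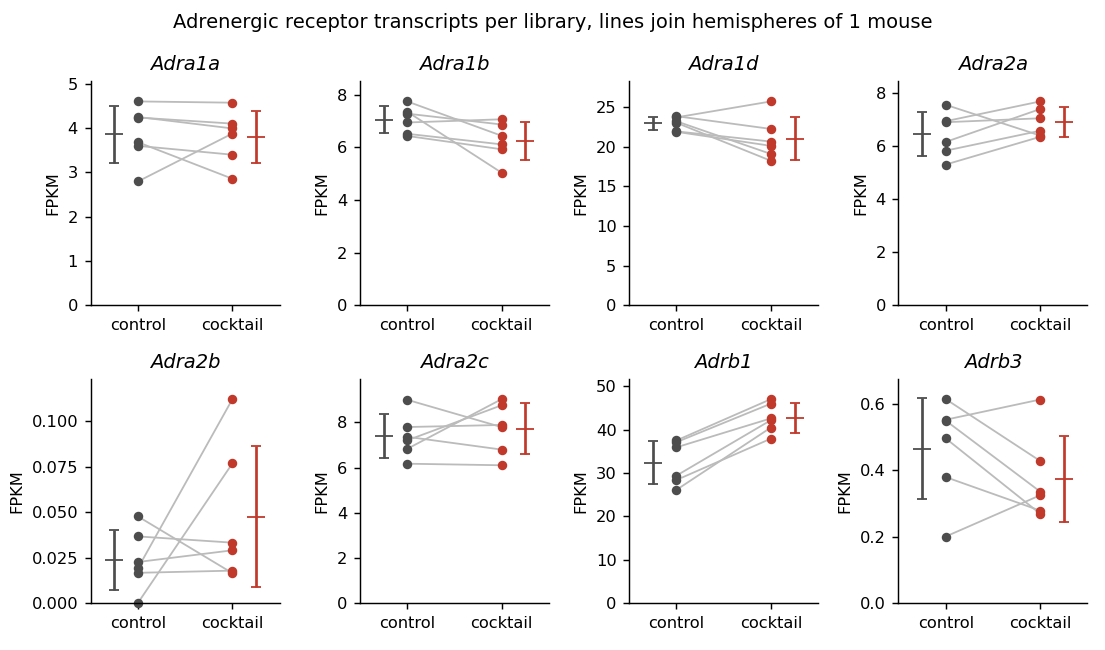
FPKM of the 8 receptors in control (gray) and cocktail-treated (red) slices, 1 panel per receptor, each with its own axis from 0. Lines join both hemispheres of 1 mouse, and horizontal marks with bars give the mean and SD of 6 libraries. The 6 lines of Adrb1 all go up, from 26.1 to 37.5 FPKM in control to 37.9 to 47.1 in the cocktail, whereas the groups overlap for the other receptors.

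The other beta receptor, Adrb3, was below the minimum mean of 1 FPKM and was not tested across loci. Its cocktail levels were 0.269 to 0.613 FPKM (median 0.330), within the control range for every library, and lower in 4 of 6 mice (exact p = 0.219). It was represented by 11 to 25 reads per library, and counting error alone was 22.2% of a control value. Adrb3 made up 1.39% ± 0.344 of the summed beta FPKM in control and 0.857% ± 0.229 in cocktail-treated slices (SD, n = 6). An antisense gene, Gm45470, overlaps Adrb3 in GENCODE M21, and the strand setting of the counting is not given in the sources used here.

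Among the alpha1 receptors, Adra1d and Adra1b were lower in 5 of 6 mice each, but neither passed the threshold over all loci. Cocktail-treated slices of mice 1 to 6 had 19.1, 20.1, 25.7, 20.7, 18.2 and 22.3 FPKM of Adra1d (21.0 ± 2.69, SD, n = 6). Mouse 3 had the highest cocktail value, above every control slice, and 4 of the 6 cocktail values lay below every control slice. The log2 fold change was -0.13 ± 0.059 (SE; 95% interval -0.26 to -0.00093; limma p = 0.0486, adjusted p = 0.612; exact p = 0.125). An antisense gene, Gm14285, overlaps Adra1d, with the same limit on strand as for Adrb3.

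Adra1b had 5.03, 6.87, 7.06, 6.11, 5.92 and 6.44 FPKM in the cocktail-treated slices of mice 1 to 6 (6.24 ± 0.732, SD, n = 6, against 7.04 ± 0.511 in control). The lowest value was in mouse 1, and the groups overlapped. Its log2 fold change was -0.16 ± 0.067 (SE; 95% interval -0.30 to -0.010; limma p = 0.0377, adjusted p = 0.549; exact p = 0.0625). Adra1a had a log2 fold change of -0.02 (95% interval -0.18 to 0.15; adjusted p = 0.982), with 2.86 to 4.57 FPKM in cocktail-treated slices. It was lower in 5 of 6 mice, and mouse 6, with the lowest control value of 2.79 FPKM, went the other way to 3.88.

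Among the alpha2 receptors no difference passed the test. Adra2a had 6.35 to 7.68 FPKM in cocktail-treated slices (median 6.81) and was higher in 5 of 6 mice, with a log2 fold change of 0.09 (95% interval -0.05 to 0.23; adjusted p = 0.811; exact p = 0.219). Mouse 3 was the exception, with 7.55 FPKM in control and 6.39 in the cocktail. Adra2c had 6.10 to 9.03 FPKM (median 7.84) and was higher in 3 of 6 mice, with a log2 fold change of 0.05 (95% interval -0.11 to 0.21; adjusted p = 0.912; exact p = 0.562). Both intervals stop short of the 0.28 at which the interval of Adrb1 begins. Adra2b was not tested across loci. It had 16 reads over the 6 cocktail libraries, or 0.174 per 1000000 reads (exact 95% Poisson interval 0.0997 to 0.283), against 8 in control, and 3 or fewer reads in 6 control and 4 cocktail libraries. Within mice its exact p was 0.344.

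**Figure D3:**
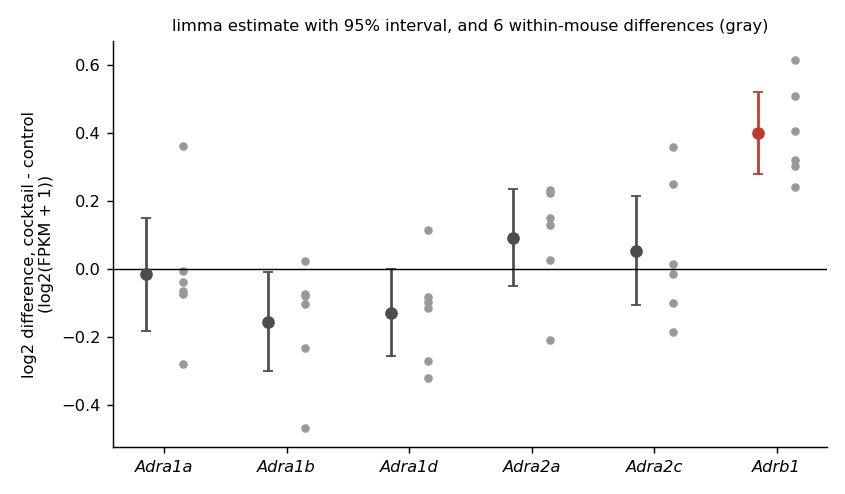
Difference between cocktail and control on the log2(FPKM + 1) scale for the 6 receptors tested. Large points with bars are the limma estimate and its 95% interval, and small points are the 6 within-mouse differences. Adrb1 (red, adjusted p = 0.00213) lies at 0.40 with every mouse above 0. The intervals of Adra1b and Adra1d end just below 0, with adjusted p of 0.549 and 0.612.

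In all, 6 of the 8 receptors were tested and 1 was called, in the direction of a rise. Of all 12032 loci tested, 1.5% were called, and 1.22% were called higher. The median log2 fold change of the 6 receptors was 0.02, against 0.01 over all loci. At an unadjusted p under 0.05 there were 3 of the 6 receptors and 968 of the 12032 loci tested. The scale with a pseudocount of 1 understates the fold of low transcripts. Of the 6 receptors tested Adra1a is the lowest, but the scale bears more on Adra2b and Adrb3. With a pseudocount of 0.1 the mean within-mouse log2 difference of Adra2b went from 0.03 to 0.23. That of Adrb3 went from -0.09 to -0.24.

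Whether the change of Adrb1 differed from that of each other receptor was tested within mice in 5 comparisons, chosen after its values were seen. The difference of the changes was 0.55 ± 0.27 against Adra1b, 0.53 ± 0.22 against Adra1d and 0.31 ± 0.20 against Adra2a on the log2 scale (SD, n = 6), each larger for Adrb1 in 6 of 6 mice (exact p = 0.03125, adjusted 0.0521). Against Adra1a and Adra2c it was 0.42 ± 0.29 and 0.34 ± 0.28, larger for Adrb1 in 5 of 6 mice (exact p = 0.0625). None passed 0.05 after adjustment, in a design whose smallest raw p is 0.03125.

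With Adrb1 the make-up of the receptor transcripts shifted. The beta receptors summed to 32.9 ± 5.14 FPKM in control and 43.1 ± 3.51 in cocktail-treated slices (SD, n = 6), with a higher sum in 6 of 6 mice. The alpha1 receptors summed to 33.8 ± 0.824 and 31.1 ± 2.97, with a higher sum in 1 of 6 mice. The alpha2 receptors summed to 13.9 ± 1.27 and 14.7 ± 1.16. As a share of the 8, the beta receptors went from 40.6% to 48.5%, the alpha1 receptors from 42.2% to 35.0% and the alpha2 receptors from 17.2% to 16.5% (means of 6 libraries). The beta share was higher and the alpha1 share lower with the cocktail in 6 of 6 mice. The ratio of Adrb1 to Adra1d was 1.42 ± 0.233 in control and 2.07 ± 0.355 in the cocktail. The levels of the shares depended on the length used, as did the order of the 2 genes. On reads per kilobase of RefSeq transcript, added after seeing the data, the ratio was 0.872 ± 0.128 in control and 1.29 ± 0.256 in the cocktail (SD, n = 6). On that scale the beta share went from 32.0% to 39.8% and the alpha1 share from 51.8% to 44.8%, so that in control the alpha1 sum of 31.5 ± 1.63 was well above the beta sum of 19.5 ± 2.54. The beta share was again higher and the alpha1 share lower in 6 of 6 mice. These sums follow mainly from Adrb1 and Adra1d and are given as a description, with no test.

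**Figure D4:**
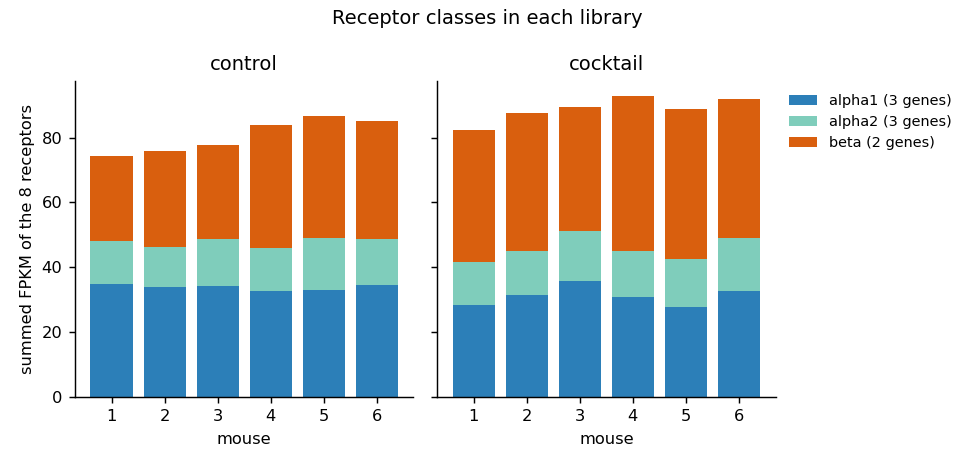
Summed FPKM of the 8 receptors in each library, stacked by class, with control slices of mice 1 to 6 on the left and cocktail-treated slices on the right. The beta segment averages 32.9 FPKM in control and 43.1 in the cocktail, the alpha1 segment 33.8 and 31.1, and the alpha2 segment 13.9 and 14.7.

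The genes through which the receptors signal were read from 4 lists with 58 genes, of which 53 were tested. Of these 0 were called in either direction. Over all loci tested 1.5% were called, so a count of 0 among 53 is near that share. The median log2 fold change of the 53 was -0.01. In limma, 1 of them had an unadjusted p under 0.05, and with voom on the recovered reads 4 had one and 0 were called. For the Gq arm, which serves the alpha1 receptors, 11 of 14 genes were tested, and their log2 fold changes ran from -0.06 (Gna11, a Gq-class alpha subunit) to 0.06 (Itpr2, an inositol trisphosphate receptor). For the Gi/o arm, which serves the alpha2 receptors, 12 of 13 were tested, from -0.09 (Gnb2, a G-protein beta subunit) to 0.12 (Gnai3, a Gi alpha subunit; adjusted p = 0.793). For the Gs and cAMP arm, which serves the beta receptors, 16 of 17 were tested, from -0.10 (Adcy6, an adenylyl cyclase) to 0.07 (Prkar1a, a regulatory subunit of protein kinase A). No member of the lists thus had a log2 fold change near that of Adrb1.

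The last of the lists held genes of receptor desensitisation and scaffolding, and all 14 were tested. The values ran from -0.08 (Grk6, a receptor kinase) to 0.15 (Slc9a3r1, a PDZ scaffold that can bind beta receptors). Slc9a3r1 is the gene with the unadjusted p under 0.05: it had 16.4 ± 3.40 FPKM in control and 18.1 ± 2.09 in cocktail-treated slices (SD, n = 6) and was higher in 5 of 6 mice. Its limma p was 0.0251 (adjusted p = 0.470). The beta-arrestins and the kinases Adrbk1 and Adrbk2, which shut off receptor signaling, were not called either. Arrb1 had a log2 fold change of -0.07 (adjusted p = 0.780), and Adrbk1 one of -0.02 (adjusted p = 0.938).

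**Figure D5:**
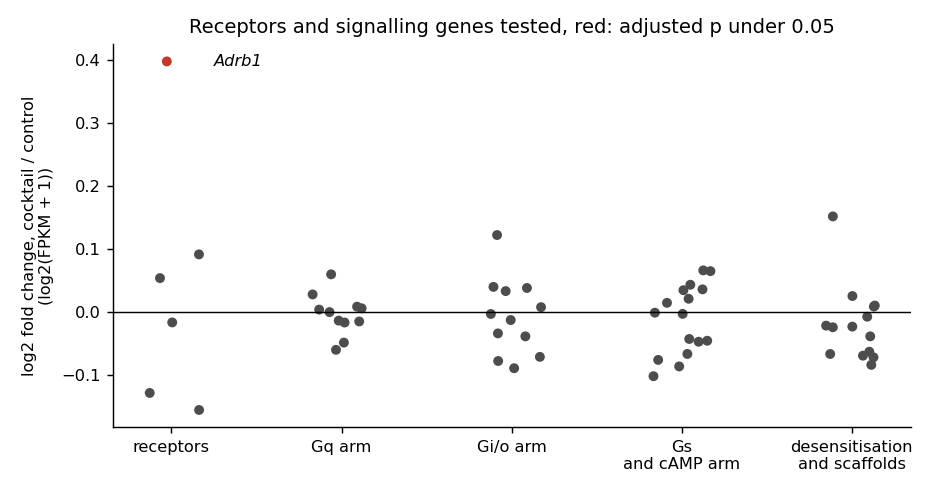
Log2 fold change of cocktail against control on the log2(FPKM + 1) scale for the 6 receptors tested and for the 53 genes tested of 4 signalling lists, 1 point per gene, spread sideways for legibility. The point of Adrb1, at 0.40, is the only red one, and the genes of the lists lie between -0.10 and 0.15.

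The libraries were checked for the cells that could carry these receptors. Of 55 marker genes tested from 15 lists of cell types and neighbouring tissues, limma called 0, with 2 at an unadjusted p under 0.05. The share called over all loci tested was 1.5%, so a count of 0 is near it here too. Voom on the recovered reads called 0, with 8. The noradrenergic neuron list, which marks the source of the ligand, was low, with a summed level of 2.16 to 3.36 FPKM in control and 2.53 to 3.16 in cocktail libraries. Dbh, the enzyme that makes norepinephrine, had 0.110 ± 0.048 FPKM in control, and the norepinephrine transporter Slc6a2 had 0.0185 ± 0.0118 (SD, n = 6). The enzymes of earlier steps were higher: Th had 0.875 ± 0.199 FPKM in control and 0.796 ± 0.163 in the cocktail, and was below the minimum for testing. Ddc, the only gene of the list tested, had 1.49 ± 0.219 and 1.85 ± 0.113 FPKM and was higher in 5 of 6 mice. Its log2 fold change of 0.20 had a limma p of 0.0093 and did not pass the threshold (adjusted p = 0.276). The 4 adipocyte markers were each under 0.1 FPKM on average. The excitatory neuron marker Slc17a7 was high, with 689 ± 38.0 FPKM in control and 660 ± 23.7 in the cocktail (SD, n = 6). Of the choroid plexus markers, Ttr averaged 0.0076 FPKM in control and 0 in the cocktail, and Kl 0.969 and 1.09. Folr1 averaged 0.158 and 0.136, and Clic6 0.0242 and 0.0225. Of the hippocampus markers, Fibcd1 varied widely between slices, with 11.8 ± 5.94 FPKM in control and 13.3 ± 7.78 in the cocktail. Spink8 did so too, with 3.84 ± 2.62 and 3.76 ± 1.79, whereas Wfs1 had 32.9 ± 1.37 and 33.0 ± 4.82 (SD, n = 6). Of the 4 striatum markers tested, 1 had a log2 fold change above 0 (median -0.08).

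Some marker lists leaned one way with the groups, and their part in the rise of Adrb1 was not tested. All 6 oligodendrocyte markers had a log2 fold change above 0 (median 0.12; summed 1998 to 2566 FPKM in control and 2301 to 2645 in the cocktail), as did all 6 inhibitory neuron markers (median 0.08; 480 to 540 and 511 to 557 FPKM). Of the astrocyte markers 5 of 6 were above 0 (median 0.06; 445 to 593 and 537 to 600 FPKM). Both markers of oligodendrocyte precursors were above 0 (median 0.14; 8.67 to 11.7 and 10.7 to 12.9 FPKM). One of them, Pdgfra, was higher in 6 of 6 mice with a log2 fold change of 0.17 (limma adjusted p = 0.387), and it and Ddc are the 2 markers at an unadjusted p under 0.05. In mouse 1, where the difference of Adrb1 was 0.61, the mean difference of the astrocyte markers was 0.36 and that of the oligodendrocyte markers 0.30. In mouse 2, where Adrb1 differed by 0.51, these were 0.02 and -0.10. In mice 3, 4, 5 and 6 the astrocyte markers differed by 0.08, -0.003, -0.11 and -0.02. The oligodendrocyte markers of these mice differed by -0.04, 0.26, 0.11 and 0.15. The mean difference of the excitatory neuron markers was 0.04, 0.08 and 0.03 in mice 1, 2 and 3, which had the larger differences of Adrb1, and -0.08, -0.14 and -0.05 in mice 4, 5 and 6. Over all mice, 2 of these 6 markers had a log2 fold change above 0 (median -0.05; 1337 to 1474 FPKM in control and 1264 to 1445 in the cocktail). The inhibitory neuron markers differed by -0.00022 to 0.12, the microglia markers by -0.15 to 0.13 and the endothelial markers by -0.04 to 0.09 between mice. Without mouse 1 the log2 fold change of Adrb1 was 0.36 (limma adjusted p = 0.00202, range over the alternatives 0.000379 to 0.05002).

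For each receptor with a mean of at least 1 FPKM, the 3 loci most like it among the other 12031 were named by Pearson's r of log2(FPKM + 1) over the 12 libraries, as a description of the highest values among many. Adrb1 was followed by Cited2, a transcriptional co-regulator (r = 0.95), Akap12, a protein kinase A anchoring protein known to bind beta receptors (0.95), and Dnajb1, a heat shock co-chaperone (0.94). All 3 were themselves called higher: Cited2 went from a mean of 48.8 to 84.2 FPKM (log2 fold change 0.80), Akap12 from 5.54 to 8.37 (0.52) and Dnajb1 from 95.7 to 160 (0.75). In the same order, r within the 6 control slices was 0.87, 0.88 and 0.95, and within the 6 cocktail-treated slices 0.95, 0.89 and 0.69. The 3 genes were picked on these same libraries, so the values within groups are no independent support.

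None of the loci most like the other receptors was called. Adra1d went with Shank3, Dgkz and Tspan5 (r = 0.91, 0.90 and 0.89), of which Shank3 encodes a scaffold of excitatory synapses. Adra2c went with Ddn, which encodes the dendritic protein dendrin, Aldh16a1 and Fuca1 (0.93, 0.93 and 0.92). Adra1b went with Lrfn1, Gga2 and Sirpa (0.91, 0.89 and 0.87), Adra2a with Prkcq, Rhpn2 and Tdp1 (0.88, 0.83 and 0.83), and Adra1a with Mpzl3, Pdcd2l and Stk35 (0.88, 0.85 and 0.81). These values rest on 12 libraries that are paired by mouse and differ in depth.

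The depth was 10600305 to 19768349 reads on all loci per control library (median 14921317) and 13539550 to 17506846 per cocktail library (median 15157308). Behind Adrb1 stood 636 to 1251 reads per library and behind Adra1d 457 to 891. Adra1a, Adra1b, Adra2a and Adra2c had 103 to 481 reads per library.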

How the data were processed

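Poly-A RNA of the 12 slices was sequenced as single reads of 50 bases. Ribosomal reads were removed by the authors (BWA 0.6.1), who aligned the rest to mm10 with TopHat 1.4.1, and deposited Cufflinks 1.3.0 FPKM with bias correction and a confidence interval. The study's methods add a resting period in aCSF after the incubation, which the labels do not mention. The authors' table of mean normalized counts (HTSeq 0.6.1p1, DESeq2 1.6.3), deposited as a signal per gene, was used only for its mean; its fold changes and p-values were not used. Reads were recovered from each interval, and the members' mean reads were 0.933 to 1.02 times the authors' mean count. Intervals from reads cover counting error only.

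The test was limma 3.58.1 (R 4.3.3) on log2(FPKM + 1) for loci averaging 1 FPKM or more, with mouse as a block, a variance trend and Benjamini-Hochberg adjustment at 0.05, after testing on simulated data. The mouse number in the labels pairs the hemispheres: deviations from the group means correlated at 0.216 to 0.406 within mice (6 pairs, median 0.337) and at -0.420 to 0.445 between mice (30 pairs, median -0.071). Single values were tested by two-sided exact permutation tests that flip the signs of the 6 within-mouse differences. The receptors, the gene lists and the rule for named genes (all receptors, the extremes of each list, 3 like loci per receptor) were chosen with earlier results of these data known. Coordinates are those of the files (mm10), counted from 1; exons are from GENCODE M21. Alternatives were another pseudocount, other filters, scalings and weights, no trend, no block, voom on recovered reads, other lengths, and leaving out each mouse. Figures were drawn with matplotlib 3.10.9 in Python 3.11.15.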

Additional observations from a re-analysis of the deposited data

How the results depend on the processing

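Of the 15 alternative fits, 14 called Adrb1 and no other receptor. Without the mouse block 0 receptors were called and Adrb1, at an unchanged log2 fold change of 0.40, had an adjusted p of 0.05002, while the count over all loci was 88 in place of 180 (77 higher and 11 lower). With voom on the recovered reads the count was 118 (99 higher and 19 lower). When both hemispheres of each mouse were left out in turn, 104 to 181 loci were called, the fewest without mouse 4, and Adrb1 was called each time (log2 fold change 0.36 to 0.43). Adra1b and Adra1d kept a value below 0 in all 15 fits, from -0.21 to -0.09 and from -0.19 to -0.09, and were not called in any. The values of Adra1a (-0.09 to 0.04), Adra2a (-0.01 to 0.15) and Adra2c (-0.09 to 0.10) crossed 0 and were not called. The block changed no other receptor's call.

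In the order of control levels, 5 receptors changed place when reads per kilobase of RefSeq transcript were used, 3 when the deposited locus gave the length of the 3 receptors with 1 exon (chosen after seeing the data), and 2 when the cocktail libraries were ordered. Leaving out each mouse moved 0 to 2 places, the 2 being Adra2c and Adra1b without mouse 5. Depth limits Adra2b, with 0 to 6 reads per library, and Adrb3, with 11 to 25.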
